A study of Homo sapiens with 14 samples.

Results

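A group of 10 genes that are used to mark stem-like cancer cells were followed in 3 human ovarian cancer cell lines after inhibition of histone H3 lysine 27 demethylation. The group holds the retinaldehyde dehydrogenases ALDH1A1, ALDH1A2 and ALDH1A3, the surface proteins PROM1 (CD133), CD44 and CD24, the transcription factors SOX2, SOX9 and KLF4, and the receptor LGR5. The 10 genes were chosen by name and matched by symbol to the Ensembl identifiers of the count tables. All 10 were found among 58825 identifiers. The cells were the lines OVCAR-3, CAOV3 and SKOV3, each treated with 2.5 µM GSK-J4 or 2.5 µM GSK-J5. GSK-J4 enters cells and blocks the H3K27 demethylases KDM6A, also called UTX, and KDM6B, also called JMJD3. GSK-J5 is its isomer and serves as the inactive control. At 72 h there were 3 libraries for each compound in each line. OVCAR-3 was also sampled at 48 h, with 2 libraries for each compound, which makes 22 libraries in all. No library without a compound was analysed here, so each change is GSK-J4 relative to GSK-J5. Replicates 1 and 2 form a first library set, from cells in stripped medium. Replicate 3 forms a second set with another RNA kit, poly(A) selection and serum named for the medium, so that set and replicate 3 are one and the same. Whether replicates came from separate cultures is not stated in the labels, so a p-value speaks only of the spread among these libraries, which may be technical.

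The ALDH1A enzymes oxidise retinaldehyde to retinoic acid, the ligand of nuclear receptors that act on differentiation, and a high aldehyde dehydrogenase activity is a common way of sorting stem-like cells from ovarian tumours. CD133 and CD44 are surface markers used in the same sorts, CD44 being a receptor for hyaluronan and CD24 a small glycosylated protein anchored in the outer membrane. SOX2 and KLF4 belong to the factors that reprogram somatic cells to pluripotency, SOX9 acts in progenitor cells of many epithelia, and LGR5 binds R-spondins and so strengthens Wnt signals. KDM6A and KDM6B remove methyl groups from the repressive mark H3K27me3, which Polycomb complexes place on the promoters of many developmental genes.

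The stretches just before the start sites of 4 of these genes are shown because these genes changed in different directions in the first library set of OVCAR-3 at 72 h (below) and because their windows hold at most 3 bases of annotated exon. They are the 150 bases before the RefSeq start (GRCh38.p14), 5′ to 3′ on the strand of the gene, and capitals mark any of 5 motifs found by a search of both strands. They were the TATA box TATAAA, the NF-Y motif CCAAT, the Sp/KLF motif GGGCGG, the E-box CACGTG and the AP-1 motif TGACTCA. The windows lie at chr9:72953054-72953203 on the minus strand (ALDH1A1), chr3:181711775-181711924 on the plus strand (SOX2), chr6:106975628-106975777 on the minus strand (CD24) and chr9:107489770-107489919 on the minus strand (KLF4).
ALDH1A1: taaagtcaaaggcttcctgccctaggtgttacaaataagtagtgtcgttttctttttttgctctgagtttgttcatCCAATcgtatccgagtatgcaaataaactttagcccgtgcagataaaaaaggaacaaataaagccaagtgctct
SOX2: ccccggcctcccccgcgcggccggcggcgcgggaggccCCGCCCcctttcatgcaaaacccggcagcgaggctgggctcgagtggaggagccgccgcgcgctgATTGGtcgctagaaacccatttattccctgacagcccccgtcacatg
CD24: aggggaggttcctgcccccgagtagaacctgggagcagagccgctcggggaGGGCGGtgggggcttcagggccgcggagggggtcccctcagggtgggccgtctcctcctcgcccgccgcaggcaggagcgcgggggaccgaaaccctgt
KLF4: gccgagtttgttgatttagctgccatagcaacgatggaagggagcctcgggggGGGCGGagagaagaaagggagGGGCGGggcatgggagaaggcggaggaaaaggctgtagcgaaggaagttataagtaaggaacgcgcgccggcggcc

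Over the full 250 bases before the start, the ALDH1A1 window had a GC content of 38.4% and 6 CpG dinucleotides, against 68.8% and 20 for SOX2, 65.6% and 20 for CD24 and 69.2% and 25 for KLF4. The median of all 35116 RefSeq windows of that length was 58% GC and 11 CpG. ALDH1A1 and SOX2 each held 1 CCAAT, 74 and 47 bases before the start, a motif present in 32% of all windows. GGGCGG, present in 42.6% of windows, occurred 4 times in KLF4, once each in SOX2 and CD24 and not in ALDH1A1. KLF4 also held 1 CACGTG, 157 bases before the start and outside the stretch shown (6.34% of windows). TATAAA (10.7% of windows) and TGACTCA (4.2%) were in none of these 4 windows. These matches are a description of the letters only. The RefSeq table matched 8 of the 10 genes, with 14 start sites. For CD24 only start site 1 is described. Its start site 2 held neither CCAAT nor GGGCGG, and its start site 3 held 1 of each, the CCAAT 35 bases before the start. CD24 start site 3 and PROM1 start sites 2 and 4 also held at most 3 bases of annotated exon in the 150 bases and are not shown.

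Libraries held between 24037007 and 37990707 counts. Levels are given as CPM, counts scaled to library size with TMM. The limit for a count of 0 was taken from library totals alone, without TMM. On that scale 3 counts, the most that a count of 0 allows, stood for 0.079 to 0.125 CPM. Such limits cover counting error only. With TMM the value can be higher: 3 counts of ALDH1A3 in OVCAR-3 GSK-J4 replicate 1 of 72 h were 0.159 CPM. In OVCAR-3 the GSK-J4 libraries of the first set had fewer genes with at least 10 counts, from 14680 to 15606, against 16425 to 16576 with GSK-J5, while replicate 3 had 16231 against 16492. Of 11 markers of ovarian carcinoma epithelium, 11 had a mean of at least 1 CPM in OVCAR-3, 10 in CAOV3 (WT1 was below) and 9 in SKOV3 (MUC16 and WT1 were below), and their summed level was 1035 to 2053 CPM in SKOV3 controls against 8436 to 11380 CPM in the controls of the other lines at 72 h. Of 10 leukocyte markers, 6 had no count in the control libraries of each line at 72 h, CD3D and MS4A1 among them; their sum reached 55.3 to 113.9 CPM in CAOV3 controls and at most 5.77 CPM in the others. The 8 fibroblast markers summed to 481.5 to 622.1 CPM in SKOV3 controls, where 6 of them had at least 1 CPM.

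With GSK-J5 at 72 h, the 3 lines carried different members of the group. OVCAR-3 had ALDH1A1, SOX2 and LGR5 with little CD44, CAOV3 had CD44 and ALDH1A3, and SKOV3 had the most CD44 together with some ALDH1A1. CD24 was high in all of them. Levels are compared between genes here per kb of exon, as CPM per kb, and gene positions are those of GENCODE 29 on GRCh38.

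Among the ALDH1A enzymes, ALDH1A1 (chr9:72900662-73080442) led in OVCAR-3 at 26.2 ± 16.4 CPM per kb (SD, n = 3), against 0.0809 for ALDH1A2 (chr15:57953424-58497866) and 0.0791 for ALDH1A3 (chr15:100877714-100916626). In CAOV3 ALDH1A3 led, at 2.56 ± 0.988 CPM per kb, with ALDH1A1 at 0.0339. SKOV3 had ALDH1A1 at 4.9 ± 1.64 CPM per kb and ALDH1A3 at 0.377. ALDH1A1 counts summed to 6538 in the OVCAR-3 controls, 1260 in SKOV3 and 9 in CAOV3. By library, OVCAR-3 had 98.6, 104 and 20.9 CPM, and SKOV3 15.75, 17.45 and 8.65 CPM. Replicate 3 was thus the low library in both lines, and in OVCAR-3 it came near the SKOV3 range. Even so, ALDH1A1 was 4.85-fold higher in OVCAR-3 than in SKOV3 (log2 2.28, SE 0.399, adjusted p = 0.000199 by edgeR). ALDH1A3 was 35.6-fold higher in CAOV3 than in OVCAR-3 (log2 of OVCAR-3 over CAOV3 -5.15, SE 0.722) and 6.83-fold higher than in SKOV3 (log2 2.77, SE 0.606). Levels of ALDH1A2 were between 0.308 and 2.12 CPM in every control library at 72 h and did not pass the test between any lines.

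CD44 (chr11:35138870-35232402) was ordered SKOV3, CAOV3, OVCAR-3. The control libraries had 561.7, 521.1 and 437.9 CPM in SKOV3, 89.6, 95.8 and 113.8 CPM in CAOV3, and 1.77, 1.99 and 4.01 CPM in OVCAR-3. No ranges overlapped, which was not counted over all genes. The step from CAOV3 to SKOV3 was 5.08-fold (log2 of CAOV3 over SKOV3 -2.35, SE 0.214, adjusted p = 2.39e-07). The distance from OVCAR-3 to SKOV3 was 197.7-fold (log2 -7.63, SE 0.281). CD24 (chr6:106969831-106975627) did not differ past the threshold between any lines. It had 723.9 to 761 CPM in OVCAR-3, 780.7 to 863.2 in CAOV3, and 1157, 1164 and 332.3 in SKOV3, so that replicate 3 of SKOV3 lay below all other control libraries. Per kb of exon, CD24 exceeded CD44 in the controls of each line, with means of 240 against 0.259 in OVCAR-3, 262 against 9.97 in CAOV3 and 286 against 50.7 in SKOV3. PROM1 (chr4:15963076-16084378) was low: 2.01, 1.41 and 6.6 CPM in OVCAR-3, 0.94 to 1.26 CPM in CAOV3, and 1 count over all 3 libraries in SKOV3. The ratio of OVCAR-3 to SKOV3 was 290.6 with 95% counting limits of 51.8 and 11520.

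SOX2 (chr3:181711924-181714436) was found in OVCAR-3, with 137.4, 131.2 and 111.9 CPM in the controls. CAOV3 had 0 counts in all 3 control libraries, so that OVCAR-3 was at least 3928-fold higher, and SKOV3 had 3 counts in all, which puts OVCAR-3 3691-fold higher, with 95% counting limits of 1263 and 17900. LGR5 (chr12:71439770-71586310) had 22.1, 24 and 14.3 CPM in OVCAR-3, and the summed counts were 1761 there, 5 in CAOV3 and 6 in SKOV3. Its ratio was 374 over CAOV3 (160 to 1154) and 293 over SKOV3 (134 to 799.7). SOX9 (chr17:72121020-72126420) had 13.6 to 17.9 CPM in OVCAR-3, 19.2 to 22.5 in CAOV3 and 5.35 to 10.9 in SKOV3. CAOV3 and OVCAR-3 did not pass the test against each other (log2 -0.48, adjusted p = 0.0691), and both were above SKOV3, 2.75-fold and 1.97-fold. KLF4 (chr9:107484852-107490482) was highest in SKOV3, at 40.4, 31.5 and 65.5 CPM, 3.15-fold over CAOV3 and 2.66-fold over OVCAR-3, and the latter lines had 13.1 to 14.7 and 12.3 to 25.5 CPM. The numbers called among the 10 genes were 5 of 10 between OVCAR-3 and CAOV3, 8 of 10 between OVCAR-3 and SKOV3, and 6 of 8 between CAOV3 and SKOV3. Over all genes tested, 52.4%, 55.5% and 58.1% were called in these comparisons, so most genes differ between the lines.

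**Figure D1:**
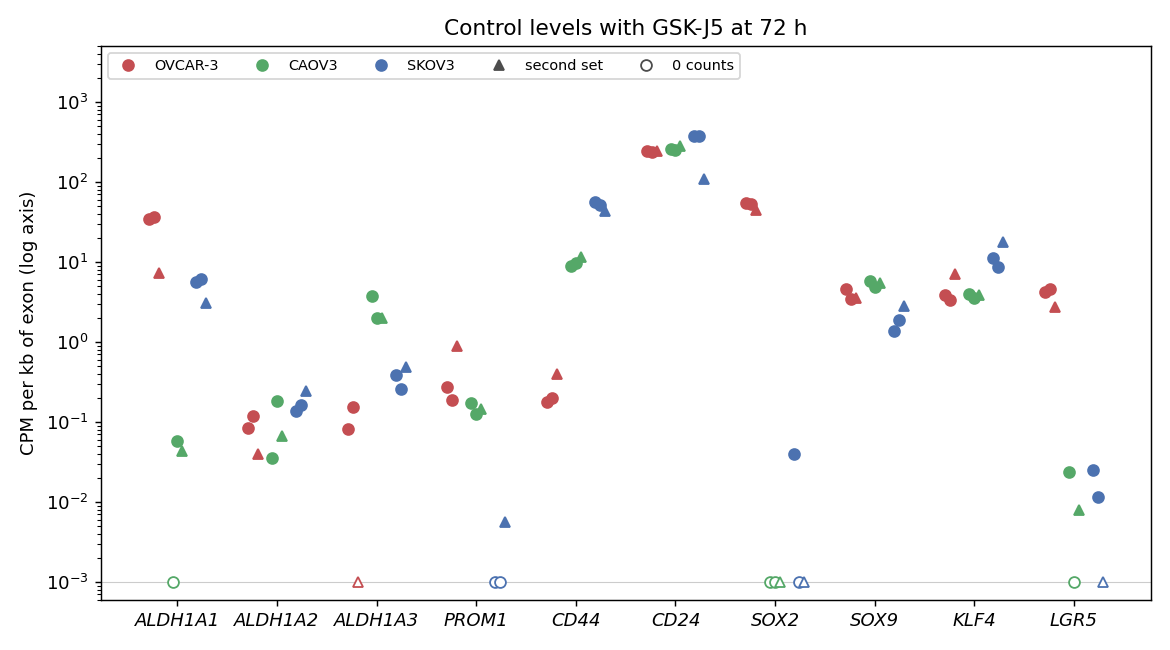
Control levels of the 10 genes with GSK-J5 at 72 h, as CPM per kb of exon on a log axis, 1 point per library, coloured by line; triangles are replicate 3 (the second set), and open points on the grey line are libraries with 0 counts. SOX2 and LGR5 stand out in OVCAR-3, CD44 is ordered SKOV3, CAOV3, OVCAR-3, and CD24 is high in every line.

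In OVCAR-3 at 48 h, KLF4 and SOX9 rose with GSK-J4 and LGR5 and CD24 fell, while the other 6 genes did not pass the threshold. KLF4 went from 12.8 and 14.25 CPM to 40.8 and 49.35 CPM, 3.4-fold higher (log2 1.76, SE 0.23, adjusted p = 0.0118). SOX9 went from 16.45 and 19.45 CPM to 37.8 and 50.9 CPM, 2.52-fold higher (log2 1.33, SE 0.225, adjusted p = 0.0177). In both genes the compounds did not overlap, which was not counted over all genes. LGR5 went from 21.1 and 25.6 CPM to 2.45 and 2.58 CPM, a 9.08-fold lower level (log2 -3.18, SE 0.78, adjusted p = 0.0343). CD24 went from 755.2 and 780.6 CPM to 286.9 and 331.6 CPM, 2.43-fold lower (log2 -1.28, SE 0.308, adjusted p = 0.0331). In these bulk libraries fewer cells of a type and less RNA per cell cannot be told apart. Over all 17402 genes tested, 11.3% were called higher and 7.63% lower, against 2 and 2 of the 10 genes. The median log2 change was -1.26 over the 10 genes and -0.03 over all genes. Leaving out any 1 of the 4 libraries of 48 h leaves 1 library in a group. The calls did not hold there, for these genes or for any other. The log2 change was then 1.64 to 1.88 for KLF4, 1.12 to 1.52 for SOX9, -3.3 to -3.05 for LGR5 and -1.38 to -1.2 for CD24. Without GSK-J5 replicate 1 of 72 h 2 were called (KLF4 and SOX9), with 8.33% of all genes. Without GSK-J5 or GSK-J4 replicate 3 of 72 h it was 8, with 56.05% and 54.6% of all genes. With a block on the replicate number 0 of all 17402 genes passed.

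Among the 6 genes without a call at 48 h, 5 had lower mean levels with GSK-J4 and CD44 a higher one. ALDH1A1 had 86.6 and 88 CPM with GSK-J5 and 36.35 and 32.7 CPM with GSK-J4 (log2 -1.31, SE 0.448, adjusted p = 0.0686). SOX2 had 131.4 and 134.2 CPM against 45.1 and 32.6 CPM (log2 -1.74, SE 0.696, adjusted p = 0.0994). PROM1 had 1.58 and 2.585 CPM against 0.595 and 0.884 CPM (log2 -1.46, SE 0.537, adjusted p = 0.0817). The libraries of the compounds did not overlap in any of these 3 genes. How many of all genes do the same was not counted, so nothing is read from it. CD44 had 2.96 and 2.43 CPM against 6.13 and 4.68 CPM (log2 1.03, SE 0.447, adjusted p = 0.119). ALDH1A2 (log2 -0.26) and ALDH1A3 (log2 -1.24) had at most 48 counts in any library of 48 h, with intervals from -1.23 to 0.71 and from -4.42 to 1.94. Markers of carcinoma epithelium moved at the same time: their sum was 6717 to 6890 CPM with GSK-J4 against 10750 to 10910 CPM with GSK-J5, with 4 of 11 lower and 1 higher. Summed fibroblast markers were at 12.3 to 13.9 CPM with GSK-J4 against 41.9 to 42.65 CPM with GSK-J5, endothelial markers at 1.58 to 1.96 against 5.13 to 5.72 CPM, and leukocyte markers at 0.774 to 0.91 against 1.38 to 2.06 CPM, and EMCN, CD3D and MS4A1 had no count. The part of these markers in these results, and that of the lower number of detected genes, was not tested.

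At 72 h in OVCAR-3 the first and the second set differed for most of the falling genes. In replicates 1 and 2 SOX2, LGR5, ALDH1A1 and CD24 were lower with GSK-J4, and in replicate 3 they were near or above the control. CD44, KLF4 and SOX9 were higher with GSK-J4 in each pair of libraries with the same number, at both times. With all 6 libraries, edgeR called 0 of the 10 genes and 0.0298% of all 16802 genes. By edgeR, 6 of the 10 genes and 7244 of all genes had an unadjusted p below 0.05. DESeq2 called 6 of the 10 and 37.6% of all genes, and limma voom 0 and 0.0238%.

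LGR5 had 22.1, 24 and 14.3 CPM with GSK-J5 and 1.27, 1.39 and 11.3 CPM with GSK-J4 at 72 h, which is 17.4-fold, 17.3-fold and 1.27-fold lower in replicates 1, 2 and 3. SOX2 had 137.4, 131.2 and 111.9 CPM against 22.85, 9.97 and 122.5 CPM, or 6.01-fold and 13.2-fold lower in replicates 1 and 2 and 1.095-fold higher in replicate 3. CD24 had 743.2, 723.9 and 761 CPM against 265.2, 297 and 809.7 CPM. In SOX2 and CD24 the third GSK-J4 library was therefore inside or above the control range, and the other libraries were far below it. ALDH1A1 had 98.6, 104 and 20.9 CPM against 29.9, 29.2 and 29.6 CPM: the 3 GSK-J4 libraries were alike, and the control of replicate 3 was the low one. PROM1 had 2.01, 1.41 and 6.6 CPM against 0.901, 0.308 and 5.25 CPM, lower within each pair but with groups that overlapped. Log2 changes over the 6 libraries were -2.87 (SE 0.838) for LGR5, -2.05 (SE 0.743) for SOX2, -1.06 (SE 0.458) for ALDH1A1, -1.07 (SE 0.492) for PROM1 and -0.91 (SE 0.309) for CD24, with adjusted p from 0.0717 to 0.147. At the same time summed fibroblast markers ran from 7.4 to 42.9 CPM with GSK-J4 and from 36.4 to 53.05 CPM with GSK-J5, and epithelium markers from 8616 to 10920 and from 10480 to 11380 CPM; their part was not tested.

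CD44 had 1.77, 1.99 and 4.01 CPM with GSK-J5 and 10.1, 12.5 and 7.76 CPM with GSK-J4 at 72 h, with no overlap (log2 2.03, SE 0.442, adjusted p = 0.07). KLF4 had 14, 12.3 and 25.5 CPM against 34.6, 40.8 and 48.5 CPM (log2 1.31, SE 0.219, adjusted p = 0.07). SOX9 had 17.9, 13.6 and 13.9 CPM against 28.6, 34.6 and 24.7 CPM (log2 0.93, SE 0.201, adjusted p = 0.07). In all 3 genes each GSK-J4 library was above each control library, which was not counted over all genes. ALDH1A3 had 14, 26 and 0 counts against 3, 0 and 10 counts, so that its direction was opposite in replicate 3. The log2 change of ALDH1A2 was 0.28 (interval -0.88 to 1.43).

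**Figure D2:**
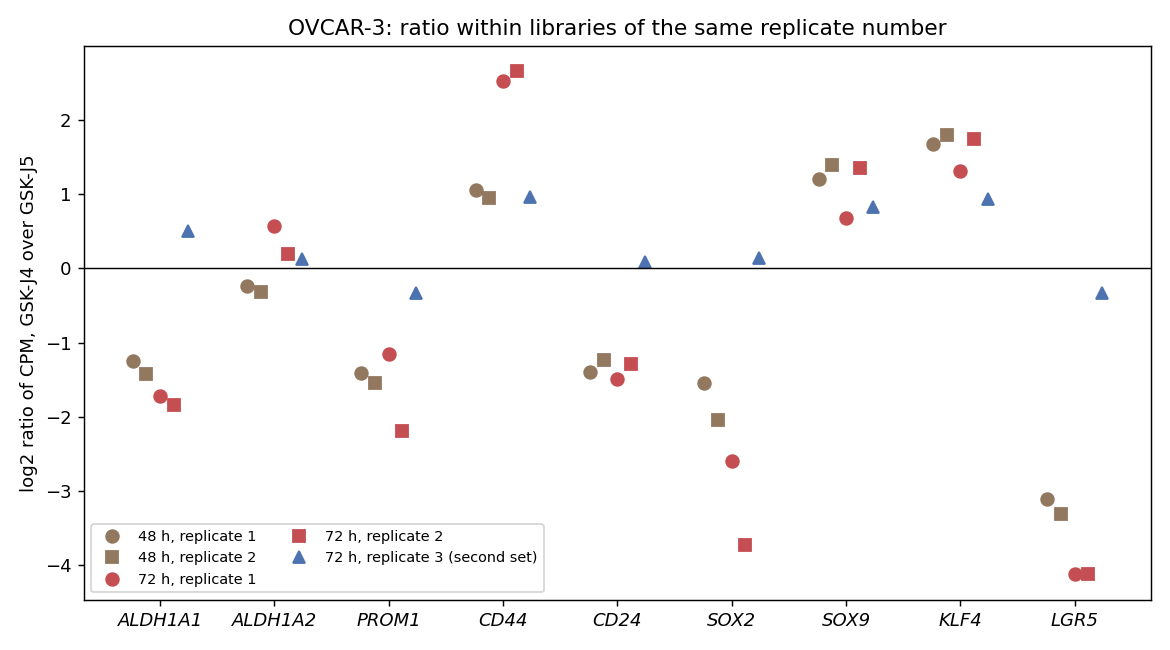
Log2 ratio of CPM, GSK-J4 over GSK-J5, between OVCAR-3 libraries of the same replicate number, for 9 genes (ALDH1A3 is left out because libraries with 0 counts give no ratio). KLF4, SOX9 and CD44 lie above 0 in all 5 pairs and LGR5 and PROM1 below 0 in all 5, while ALDH1A1, CD24 and SOX2 are below 0 in the 4 pairs of the first set and above 0 in replicate 3.

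With the first set alone at 72 h (2 libraries per compound), 3 of the 10 genes were called higher and 6 lower, and ALDH1A2 did not pass. Over all 16281 genes of that fit 34.6% were called higher and 37.1% lower. That fit also called stromal and blood cell markers: 3 of 3 fibroblast markers tested (median log2 change -4.52), 2 of 3 endothelial markers (-4.05) and 2 of 2 leukocyte markers (-1.88) were called lower and 0 higher. Of 11 markers of carcinoma epithelium 7 were called lower and 2 higher (-0.44). The part of these markers in the calls of the 10 genes was not tested. LGR5 fell by 4.04 on the log2 scale (SE 0.182, adjusted p = 6.64e-07), SOX2 by 2.96 (SE 0.451), ALDH1A1 by 1.71 (SE 0.102), PROM1 by 1.42 (SE 0.517) and CD24 by 1.31 (SE 0.102). ALDH1A3 was called too, with 3 counts in all with GSK-J4 against 40 with GSK-J5. CD44 rose 6.31-fold (log2 2.66, SE 0.213), KLF4 3.01-fold and SOX9 2.11-fold. Fitted with all 10 libraries of OVCAR-3, 6 of the 10 genes were called at 72 h (KLF4, CD44 and SOX9 higher, LGR5, SOX2 and CD24 lower), as were 43.8% of all genes.

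The difference between the sets was tested directly in the 10 OVCAR-3 libraries, as the change in the first set minus that in the second. This test was added after the data had been seen, and since the second set has 1 library per compound, its spread is assumed to equal that of the others. It called 7 of the 10 genes, against 47.7% of all 18663 genes tested. The change was more negative in the first set for LGR5 (log2 difference -3.64, SE 0.261, adjusted p = 1.15e-06), SOX2 (-3.04, SE 0.669, adjusted p = 0.0188), ALDH1A1 (-2.15, SE 0.168, adjusted p = 1.76e-06) and CD24 (-1.34, SE 0.163, adjusted p = 3.96e-05). It was more positive there for CD44 (1.77, SE 0.367, adjusted p = 0.00181) and KLF4 (0.72, SE 0.223, adjusted p = 0.0181). For ALDH1A3 the call rests on libraries with 0 counts. SOX9 (0.31, interval -0.37 to 0.99), PROM1 (-1.04, -2.47 to 0.40) and ALDH1A2 (0.37, -1.40 to 2.14) did not pass. Set, RNA kit, medium and the way the RNA was selected cannot be told apart. Leaving out GSK-J5 replicate 1 of 72 h ended the call of SOX2 (-3.00, adjusted p = 0.0509), as did a block on the replicate number (-3.11, adjusted p = 0.0588), and leaving out GSK-J5 replicate 2 ended that of KLF4 (0.63, adjusted p = 0.0646). The median difference over all genes was -0.18, and -0.07 with DESeq2 size factors.

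Between 72 h and 48 h in OVCAR-3, edgeR called 0 of the 10 genes (0 had an unadjusted p below 0.05, and DESeq2 and limma voom called 0), and 0.00575% of 17402 genes. CD44 had the highest difference, a change larger by 1.02 at 72 h with an interval from -0.32 to 2.36, and KLF4 the lowest, at -0.43 (-1.10 to 0.24). The intervals were wide for SOX2 (-2.38 to 1.83) and LGR5 (-1.93 to 2.73). The 48 h libraries all belong to the first set. Without replicate 3, or without either of its 2 libraries, 3 of the 10 genes were called. This count stands without the share over all genes in those refits and is not read as particular to these genes.

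**Figure D3:**
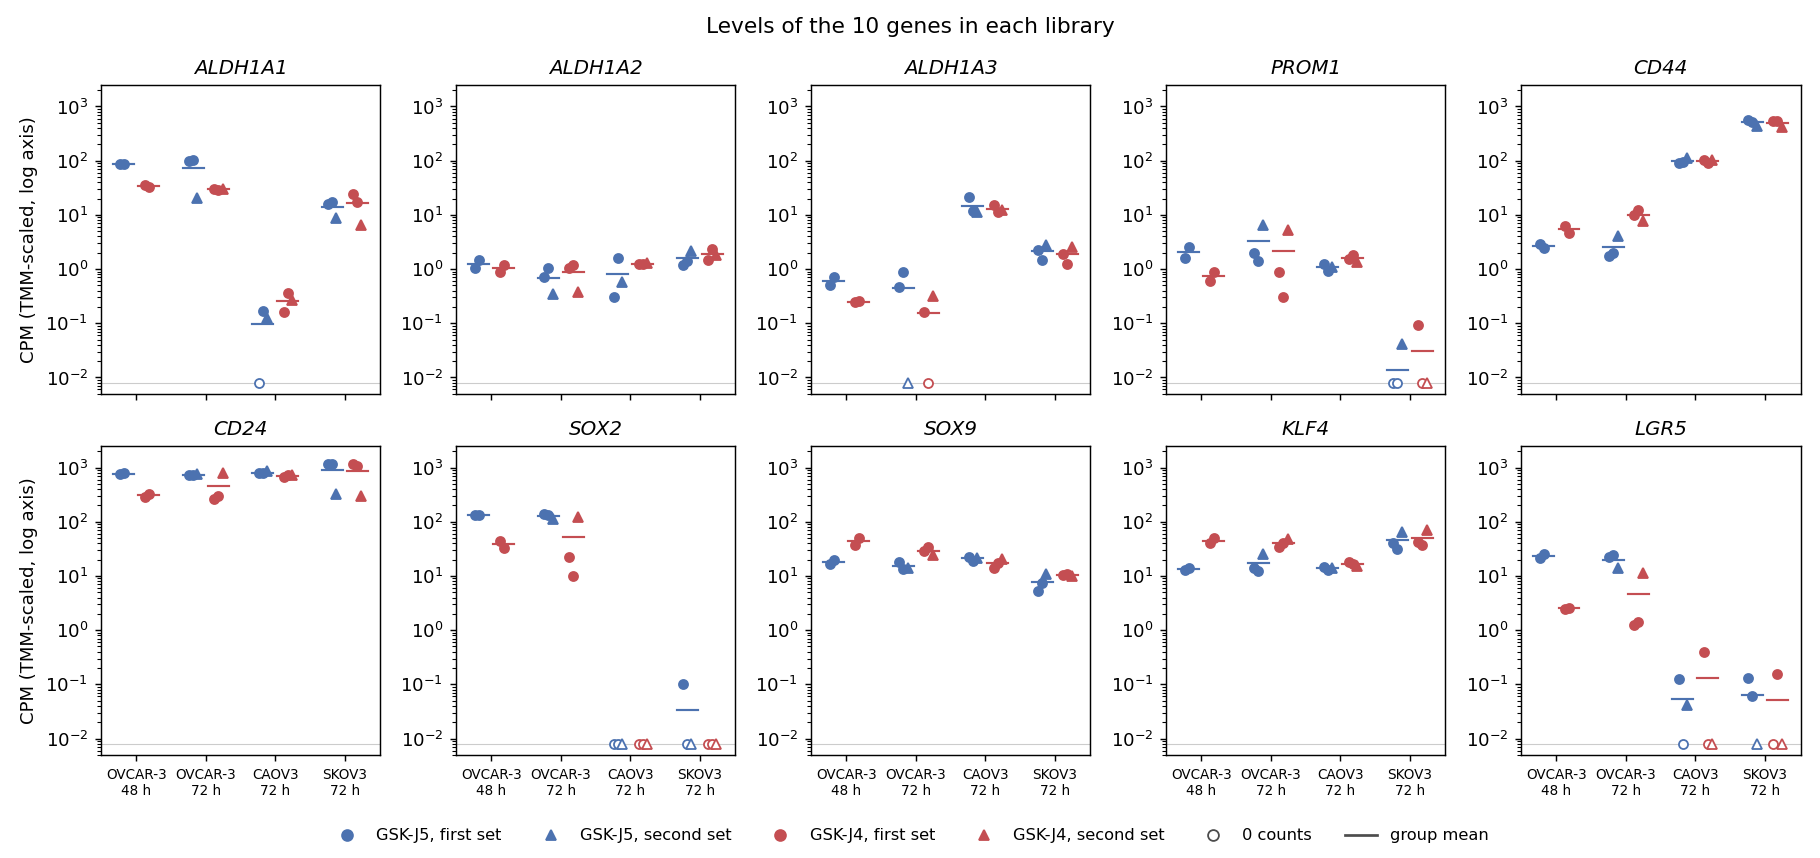
CPM of the 10 genes in all 22 libraries on a log axis, by line and time, with GSK-J5 in blue and GSK-J4 in red; circles are the first set, triangles the second, bars are group means, and open points on the grey line are libraries with 0 counts. In OVCAR-3 the red triangles of SOX2, CD24 and LGR5 at 72 h lie at or near the blue points, and the CAOV3 and SKOV3 groups overlap for most genes.

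In CAOV3 and SKOV3 none of the genes that could be tested passed at 72 h. CAOV3 had 7 of the 10 genes above the low-count filter (not ALDH1A1, SOX2 and LGR5) and SKOV3 had 7 (not PROM1, SOX2 and LGR5). edgeR called 0 of 7 in each line, with 1 unadjusted p below 0.05 in each (CD24 in CAOV3 and SOX9 in SKOV3), and DESeq2 and limma voom called 0. Over all genes 0.315% of 17137 were called in CAOV3 and 0.0412% of 16981 in SKOV3.

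CD44, the hyaluronan receptor, had 102.6, 92.3 and 103.6 CPM with GSK-J4 in CAOV3 (log2 0.01, interval -0.19 to 0.20) and 548.5, 534.6 and 413.8 CPM in SKOV3 (log2 -0.03, interval -0.15 to 0.10). CD24 in CAOV3 had 789, 780.7 and 863.2 CPM with GSK-J5 and 677.3, 715.7 and 720.6 CPM with GSK-J4 (log2 -0.20, SE 0.0736, adjusted p = 0.178). The compounds did not overlap, which was not counted over all genes. Without replicate 3 CD24 was called, as were 14.1% of all genes. In SKOV3 CD24 had 1150, 1093 and 302.6 CPM with GSK-J4, following the control in each replicate number (log2 -0.08, interval -0.20 to 0.04). KLF4 had log2 changes of 0.26 (-0.06 to 0.58) in CAOV3 and 0.14 (-0.07 to 0.35) in SKOV3. SOX9 had 22.5, 19.2 and 21.6 CPM against 13.8, 17.3 and 20.8 CPM in CAOV3 (log2 -0.29, interval -0.62 to 0.03). In SKOV3 SOX9 had 5.35, 7.4 and 10.9 CPM against 10.45, 11.1 and 10 CPM (log2 0.46, interval 0.05 to 0.88, adjusted p = 0.999). ALDH1A3 in CAOV3, its main site, had a log2 change of -0.17 (-0.62 to 0.27), and ALDH1A1 in SKOV3 one of 0.13 (-0.22 to 0.49). SOX2 had 0 counts in the 3 GSK-J4 libraries of each of these lines. LGR5 had 12 counts in CAOV3 and 6 in SKOV3 with GSK-J4, and ALDH1A1 had 23 counts in CAOV3.

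**Figure D4:**
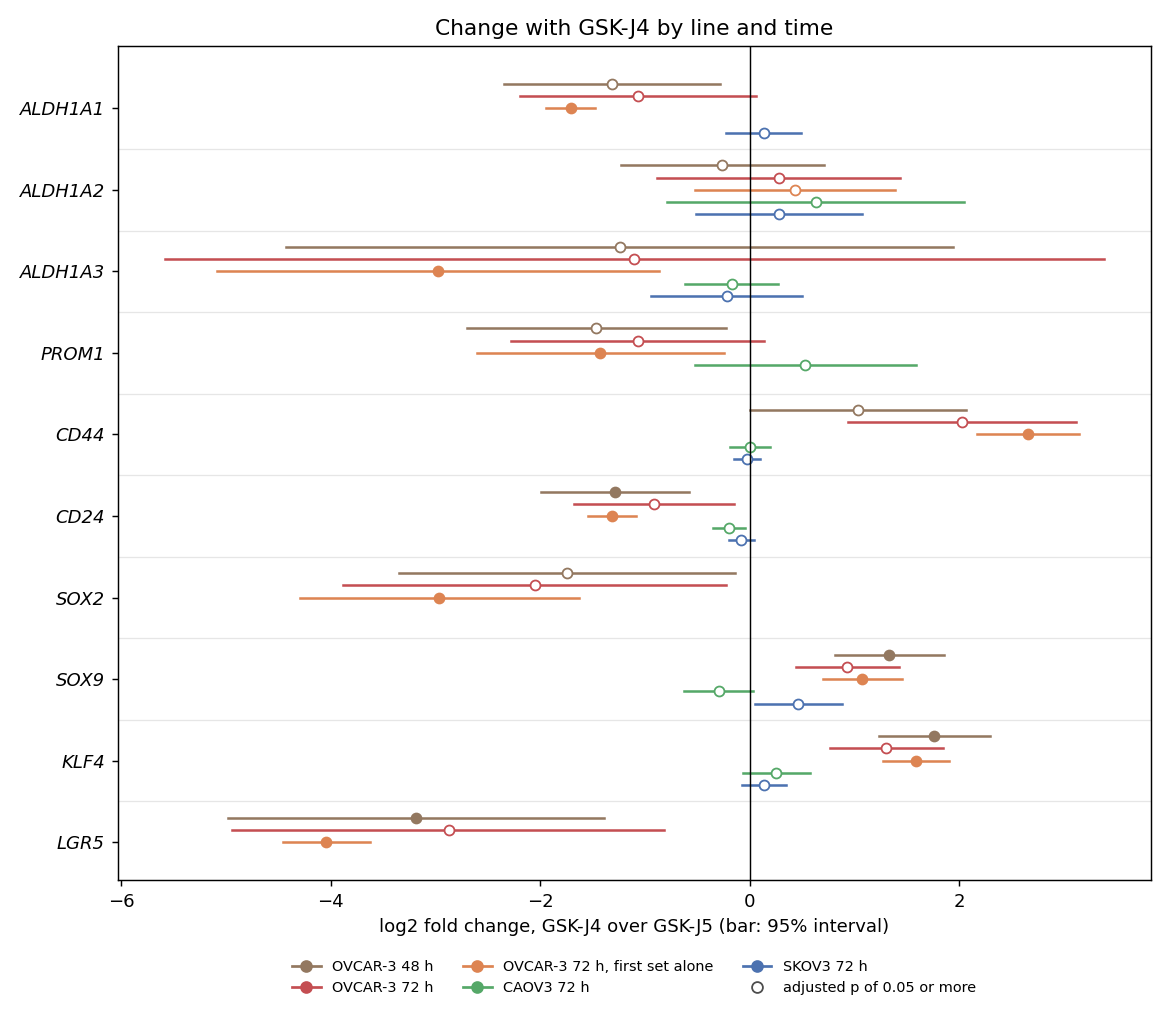
Log2 fold change of each gene, GSK-J4 over GSK-J5, with its 95% interval, in the 4 comparisons and in the first set alone at 72 h; filled points have an adjusted p below 0.05. CD44, KLF4 and SOX9 lie above 0 in all OVCAR-3 fits, LGR5, SOX2, CD24, ALDH1A1 and PROM1 below 0, and the CAOV3 and SKOV3 points lie close to 0 for CD44, CD24 and KLF4.

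The change with GSK-J4 was compared between lines in 1 fit of the 18 libraries of 72 h, for the genes tested in both lines. This fit takes 1 spread per gene over all 3 lines, so its p-values do not measure the spread of OVCAR-3 alone. In the separate edgeR fit of OVCAR-3, the CD44 change had an SE of 0.442 and an adjusted p of 0.07. CD44 and KLF4 changed more in OVCAR-3 than in either other line. For CD44 the difference was 2.00 against CAOV3 (SE 0.318, adjusted p = 0.0023) and 2.03 against SKOV3 (SE 0.317, adjusted p = 0.00263). For KLF4 it was 1.07 (SE 0.223, adjusted p = 0.00713) and 1.18 (SE 0.221, adjusted p = 0.00461). SOX9 differed between OVCAR-3 and CAOV3 by 1.24 (SE 0.3, adjusted p = 0.0127), a call that ended with a block on the replicate number (1.25, adjusted p = 0.0523) and with library totals alone as scaling (0.87, adjusted p = 0.0594); against SKOV3 it was 0.48 with an interval from -0.17 to 1.13. CD24 did not pass, at -0.70 against CAOV3 (adjusted p = 0.103) and -0.82 against SKOV3 (adjusted p = 0.0562), and neither did ALDH1A1 against SKOV3 (-1.17, adjusted p = 0.151) or PROM1 against CAOV3 (-1.59, adjusted p = 0.236). Thus 3 of 7 genes were called against CAOV3 and 2 of 7 against SKOV3, where 19.3% and 20.8% of 20252 genes were called. Without replicate 1, and without replicate 2, 0 of these genes were called in either comparison, and without replicate 3, or without either OVCAR-3 library of it, 5 were called in each. The share over all genes in each refit is not given here, so these counts are not read as particular to these genes. Both comparisons use the same OVCAR-3 libraries.

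Between CAOV3 and SKOV3 edgeR called 0 of 6 genes (1, SOX9, had an unadjusted p below 0.05, and DESeq2 and limma voom called 0), and 0% of 20252 genes, of which 1077 had an unadjusted p below 0.05. The fit takes 1 spread per gene over all 3 lines, OVCAR-3 included. For CD24 its SE was 0.285, against 0.0736 for the change in CAOV3 alone and 0.0564 in SKOV3 alone. The absence of calls therefore does not show that these lines changed alike. Without replicate 3, 1 of the 6 genes was called, again without the share over all genes in that refit. Of all calls, 65.7% were higher in the comparison of OVCAR-3 with CAOV3 and 62.5% in that with SKOV3, while library totals alone gave 30.7% and 25.5%, and DESeq2 size factors 55.5% and 55.1%. Library totals alone also moved the median log2 change of all genes in OVCAR-3 from -0.03 to -0.24 at 48 h and from -0.08 to -0.47 at 72 h, and the median difference from 0 to -0.35 against CAOV3 and from -0.06 to -0.46 against SKOV3. Under either other scaling each of the 10 genes kept its direction in OVCAR-3 at both times, except ALDH1A2 at 72 h, which was -0.12 with library totals alone.

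The relatives and partners of the 10 genes were read from lists of 170 symbols, by their counts at 48 h in OVCAR-3, where the median of all genes was -0.03 and 11.3% of all genes were called higher and 7.63% lower. The list counts were not recomputed with libraries left out. Of 15 other aldehyde dehydrogenases tested, 3 rose and 2 fell (median -0.26). ALDH1L2 and ALDH1L1, folate enzymes that oxidise formyltetrahydrofolate in mitochondria and cytosol, rose by log2 2.54 (SE 0.651) and 2.42 (SE 0.528). Of 20 retinoid genes 3 rose and 0 fell (median -0.32), among them RARA (1.18), a retinoic acid receptor. KLF factors other than KLF4 rose in 9 of 14 cases and fell in 0 (median 0.99), led by KLF11 (2.96, SE 0.48) and KLF10 (2.14, SE 0.368), which are induced by TGF-beta. Of 12 other SOX genes 1 passed, SOX5, which was lower (-2.54, SE 0.684), and their median was -0.98.

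The counts of the next 3 lists stand against the same 11.3% called higher and 7.63% called lower over all genes, and with so few calls nothing is read from them. In the LGR5 receptor module, which holds R-spondins, Frizzled receptors and Wnt targets, 1 of 17 genes passed at 48 h. It was ZNRF3 (0.62, SE 0.141), the ligase that clears Frizzled receptors from the membrane and is itself cleared with LGR5 and R-spondin. Of 15 partners of CD44 and CD24, 2 fell and 0 rose (median -0.47): HMMR (-1.74), another hyaluronan receptor, and ESRP2 (-1.40), an epithelial splicing factor that acts on CD44 transcripts. Of 14 other stem cell genes 2 rose, MYC (2.45, SE 0.476) and the Polycomb gene BMI1 (0.84, SE 0.231), and 0 fell (median -0.79). Of 11 markers of carcinoma epithelium 4 were called lower and 1 higher, against the same shares over all genes. KRT19 (-1.59) and WT1 (-2.08) were the called carcinoma markers with the largest changes. At 72 h with all 6 libraries 0 genes of these lists passed in OVCAR-3, and 0 in CAOV3. In SKOV3 2 list genes passed: ALDH3A1, which oxidises aromatic aldehydes, was 1.95-fold lower (log2 -0.96, SE 0.0897, adjusted p = 5.54e-05), and SPP1, the CD44 ligand osteopontin, was 1.32-fold higher (log2 0.40, SE 0.0628, adjusted p = 0.017).

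The genes that followed each of 5 members most closely were found by Pearson's r of log2 CPM, centred within each line, over the 22 libraries and 12352 genes; the libraries share line, set and compound, so r is a description. ALDH1A1 went with IQCD (0.894) and WDFY3-AS2 (0.883). CD44 went with SRP72 (0.954) and CANX (0.951), and KLF4 with STEAP3 (0.966) and PLEKHF1 (0.961). SOX9 went with USP43 (0.905) and SCARF2 (0.897). CD24 went with KSR2 (0.977) and COL1A2 (0.976). The exons of ALDH1A2 overlap AQP9, those of PROM1 overlap FGFBP2, and ALDH1A3, CD44 (CD44-AS1) and LGR5 overlap antisense or noncoding genes, so that reads of such partners may not be told apart. FGFBP2 lies on the strand of PROM1, and AQP9 and CD44-AS1 lie opposite, where only counting by strand separates them. CD24 has processed pseudogenes of near-identical sequence, which makes the split of its reads uncertain.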

How the data were processed

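RNA-seq counts were deposited by the authors as raw whole-number counts for 58825 Ensembl gene identifiers in 3 tables. Per the submitters' processing notes the build was GRCh38 (hg38), and STAR and DESeq2 were used; which counter was run, with which strand setting, is not stated in the labels. Coordinates and exon lengths come from GENCODE 29, promoters from RefSeq. The 14 samples hold 22 libraries; 1 column header with a shortened time was read as the third OVCAR-3 GSK-J4 library of 72 h.

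Counts were analysed in R 4.3.3 with edgeR 4.0.16: filterByExpr (minimum count 10), TMM, robust glmQLFit and glmQLFTest, with the library set as covariate and Benjamini-Hochberg adjustment over all genes tested (threshold 0.05). At 72 h the 3 lines were fitted separately, 48 h and the time difference came from the 10 OVCAR-3 libraries, and line differences from 18 libraries. Fold changes use a prior count of 0.125, and SE was worked back from the F statistic. Alternatives used DESeq2 1.42.0, limma 3.58.1 (voom), other scalings, filters and covariates, and left out libraries. The fits were tested on simulated counts with the same spread for every gene and no difference between sets. That simulation therefore does not test them under the difference between sets seen here. Replicates of a group differed by more than counting noise, so none was taken as a repeat deposit. Deviations of same-numbered libraries from their group means, not corrected for the set, had r of 0.293, 0.292 and 0.66 in SKOV3. In OVCAR-3 r was from -0.074 to 0.064, and in CAOV3 from 0.01 to 0.163. Replicate 3 is the second set, so a shift between sets can also give such r, and pairing by number is not shown.

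The members and lists were chosen with earlier results of these data known. Named were the 10 genes, from each other list at most the 2 called genes of largest change per comparison of GSK-J4 with GSK-J5, and the 2 genes most like each member among genes whose mean log2 CPM reached 1 (prior count 2). All 170 list symbols were matched. For 1 list gene that the rule names, the value is not reported here.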

Additional observations from a re-analysis of the deposited data

Results flagged for a closer look

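There were 5 differences in the change with GSK-J4 between lines that passed the test of the difference itself. For CD44 the change was larger in OVCAR-3 than in CAOV3 by 2.00 and larger than in SKOV3 by 2.03 on the log2 scale. For KLF4 it was larger in OVCAR-3 by 1.07 than in CAOV3 and by 1.18 than in SKOV3. For SOX9 it was larger in OVCAR-3 than in CAOV3 by 1.24.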

How the results depend on the processing

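The numbers of genes called moved with the libraries in a fit more than with the scaling. In OVCAR-3 at 48 h, 4 of the 10 genes were called, with 18.9% of all genes. The DESeq2 Wald test called 7 (33.65% of all genes) and the fit without the library set term 2 (4.66%). The 4 libraries of 48 h alone gave 8 (61.96%) and the replicate block 0 (0%). Leaving out libraries of 72 h gave 2 to 8 (8.33% to 58.97%). Leaving out 1 library of 48 h leaves 1 in a group, and the calls did not hold there, for these genes or any other. In OVCAR-3 at 72 h, 0 were called, with 0.0298% of all genes. The fit of 18 libraries called 6 (37.7% of all genes), that of all 10 OVCAR-3 libraries 6 (43.8%) and the DESeq2 Wald test 6 (37.6%). Without the low-count filter 2 were called (4.56%), and 0 to 9 when libraries were left out. The number was 9 only where replicate 3 of either compound was out, with 65.4% to 71.7% of all genes called. In CAOV3 leaving out libraries gave 0 to 1 (CD24, without replicate 3), for the difference of times 0 to 3, for OVCAR-3 minus CAOV3 0 to 5 (1 without the library set term), for OVCAR-3 minus SKOV3 0 to 5 (4 without the low-count filter, 1 without the set term) and for CAOV3 minus SKOV3 0 to 1 called. Besides the fall from 4 to 0 at 48 h, the replicate block gave 2 for OVCAR-3 minus CAOV3 (3 without it). For the difference between sets it gave 6 (7 without it), and it left the other counts of the 10 genes as they were. Over all genes of SKOV3, 22 were called with the block and 7 without. Directions turned only in uncalled values: ALDH1A2 at 48 h (-0.48 to 0.01 when libraries were left out) and at 72 h (-0.12 with library totals alone) in OVCAR-3 and in SKOV3 (-0.01 to 0.54), ALDH1A3 in OVCAR-3 at 72 h (-3.01 to 0.24) and in CAOV3 (-0.35 to 0.17, with 0.05 without replicate 1), CD44 in CAOV3 (-0.03 with library totals alone, -0.08 to -0.04 without replicate 1) and in SKOV3 (-0.07 to 0.00), and ALDH1A1 in SKOV3 (-0.16 to 0.34, with -0.09 without GSK-J4 replicate 1). Scaling by library totals was not run for the difference between sets. The causes were not tested. For the differences between times and between lines the refit counts stand without the share over all genes. The call of CD24 in CAOV3 without replicate 3 came with 14.1% of all genes. Libraries with few counts limit ALDH1A2, ALDH1A3 and PROM1 in OVCAR-3 and ALDH1A1, SOX2 and LGR5 in CAOV3.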

Other observations

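The first library set alone at 72 h in OVCAR-3 is an alternative fit without replicate 3 and not a main result. In it, relatives of the 10 genes were called in both directions, on a background of 34.6% higher and 37.1% lower. Of 11 other SOX genes tested 1 was higher and 8 lower, with SOX5 at a log2 change of -3.24 (SE 0.196), and of 17 genes of the LGR5 receptor module 3 were higher and 10 lower, with the R-spondin receptor gene LGR4 at -2.36 (SE 0.102) and the Frizzled gene FZD7 at -2.40 (SE 0.119). Of 14 other stem cell genes 4 were higher and 8 lower. NES, an intermediate filament of neural progenitors, was at -3.89 (SE 0.52) and PROM2, a relative of PROM1, at -3.66 (SE 0.215). Of 14 other KLF genes 6 were higher and 4 lower, with KLF11 at 3.10 (SE 0.114). Of 15 other aldehyde dehydrogenases 4 were higher and 9 lower.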
